A study of Mus musculus with 17 samples.

Results

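The 9 genes described here mark the sinusoids and veins of the vascular tree: the scavenger and clearance receptors Stab1, Stab2, Lyve1, Mrc1 and Fcgr2b, the secreted nuclease Dnase1l3, and the venous genes Il6st, Adamts5 and Nr2f2. They were chosen by name, as known sinusoidal scavenger receptors and venous markers, and are 9 of the 49585 gene identifiers counted in every library. The question put to them was how they behave across genotype and time in cells sorted through a gate that should favour arteries. The libraries are from endothelial cells of mouse bone marrow, from 1 animal each. The KO group carries an induced deletion of Endoglin, the TGF-beta family co-receptor encoded by Eng, through a Cdh5:CreERT2 transgene (a tamoxifen-dependent Cre under an endothelial promoter) acting on an Eng allele with loxP sites around exons 5 and 6. The other group is labelled WT, and whether it carried the Cre is not given in the sources used here. Every animal of both groups received tamoxifen at 8 weeks of age. Cells were collected 2 weeks later (4 WT and 4 KO libraries, each with 2 females and 2 males) or 4 weeks later (5 WT libraries, 2 of them female, and 4 KO libraries, 1 of them female). Libraries are named by sex and number (f1, m2), and 1 WT female at 4 weeks has no number (f).

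Sinusoids are the wide, thin-walled, fenestrated venous vessels of marrow, liver and spleen. Their endothelium takes up waste molecules from blood through scavenger receptors, and venous identity itself is set by the nuclear receptor Nr2f2, which holds down Notch signalling, the pathway that drives arterial fate. In marrow, Sca1 (encoded by Ly6a) is high on arterial and arteriolar endothelium and low on sinusoidal endothelium. The protocol in the labels sorts CD31+, Sca1+ cells that lack CD45 and Ter119, while the design text of the series lists the gate without Sca1.

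The promoters of 3 of the 9 genes are shown because the values below turn on them: Il6st had the highest level of the 9, Stab2 separated the time points in both genotypes, and Nr2f2 alone separated the genotypes at 4 weeks. Each window runs from 250 bases before to 50 after the annotated start on build GRCm38.p6 (RefSeq), 5′ to 3′ on the gene's strand. Capitals mark matches to any of 5 short motifs searched on both strands, which do not overlap one another in these windows: CCGGAA for ETS factors, AGGTCA for nuclear receptors, TTCNNNGAA for STAT factors, ACAATG for SOX factors and AGATAA for factors of the GATA family.
Il6st, chr13:112463820-112464119, plus strand: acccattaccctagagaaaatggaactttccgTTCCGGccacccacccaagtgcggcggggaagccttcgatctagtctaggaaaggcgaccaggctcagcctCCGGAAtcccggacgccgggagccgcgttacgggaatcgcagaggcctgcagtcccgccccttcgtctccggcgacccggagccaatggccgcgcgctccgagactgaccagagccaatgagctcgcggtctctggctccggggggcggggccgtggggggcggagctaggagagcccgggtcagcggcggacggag
Stab2, chr10:87007893-87008192, minus strand: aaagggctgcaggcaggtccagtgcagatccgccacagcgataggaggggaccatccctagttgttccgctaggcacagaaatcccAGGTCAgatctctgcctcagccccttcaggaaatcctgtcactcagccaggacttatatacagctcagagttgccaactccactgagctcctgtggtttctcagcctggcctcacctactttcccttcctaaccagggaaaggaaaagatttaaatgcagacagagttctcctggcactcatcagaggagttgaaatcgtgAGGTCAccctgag
Nr2f2, chr7:70366697-70366996, minus strand: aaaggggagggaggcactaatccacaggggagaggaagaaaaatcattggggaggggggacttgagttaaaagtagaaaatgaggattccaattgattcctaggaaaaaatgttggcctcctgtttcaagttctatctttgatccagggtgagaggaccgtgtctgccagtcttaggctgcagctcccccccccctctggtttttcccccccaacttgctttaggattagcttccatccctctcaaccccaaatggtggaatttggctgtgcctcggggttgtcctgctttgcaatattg
The Il6st window is GC-rich, at 68.3% with 33 CpG dinucleotides, against medians of 52.7% and 7 over 32851 promoters of this length. It holds CCGGAA at window positions 33 (on the opposite strand) and 104, a motif found in 14.9% of those promoters. The Stab2 window, at 53.0% GC with 4 CpG, holds AGGTCA at positions 87 and 288, a motif found in 16.3%. The Nr2f2 window, at 49.7% GC with 2 CpG, holds none of the 5 motifs. Promoters of 6 of the 9 genes were matched. Among the matched ones not shown, Fcgr2b holds AGGTCA at position 40, and Stab1 and Mrc1 hold no match. TTCNNNGAA, AGATAA and ACAATG, found in 8.30%, 11.2% and 12.6% of promoters, match in none of the 6 windows.

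All 9 are protein-coding genes, placed here on GRCm38 with the GENCODE M21 annotation. The receptors are Stab1 (ENSMUSG00000042286, chr14:31139013-31168641, minus strand), Stab2 (ENSMUSG00000035459, chr10:86841198-87008025, minus), Lyve1 (ENSMUSG00000030787, chr7:110850607-110863239, minus), Mrc1 (ENSMUSG00000026712, chr2:14229392-14332057, plus) and Fcgr2b (ENSMUSG00000026656, chr1:170958617-170976547, minus). The nuclease Dnase1l3 is ENSMUSG00000025279 (chr14:7964533-7994573, minus). The venous genes are Il6st (ENSMUSG00000021756, chr13:112464070-112510086, plus), Adamts5 (ENSMUSG00000022894, chr16:85856173-85901828, minus) and Nr2f2 (ENSMUSG00000030551, chr7:70351944-70366735, minus). Exons of Stab1, Stab2, Fcgr2b and Nr2f2 overlap those of Nt5dc2, Gm16268, Gm38204 and B130024G19Rik on the other strand. The strand setting of the counting is not given in the sources used here, so reads from these overlaps cannot be told apart.

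Total counts were 20477400 to 40882715 per library, and a count of 3, taken as the floor, equals 0.0734 to 0.147 CPM (counts scaled to a common library total of 1000000). The 2-week libraries were less complex than the 4-week ones, with 10886 to 13583 against 15996 to 21235 genes detected and 22.2% to 29.5% against 4.66% to 8.99% of counts from mitochondrial genes. No batch is labelled, so the time point and any other difference between these sets of libraries cannot be told apart. Eng, the targeted gene, stood in KO at 21.4% to 33.0% of the WT mean at 2 weeks and at 10.6% to 63.7% at 4 weeks, where KO m2 was the highest. The sorted cell type carried its markers: Pecam1 (CD31) was at 688 to 3143 CPM and Ly6a at 1481 to 2990 CPM in every library, while Ptprc (CD45) stayed at or under 2.57 CPM except in KO m2 at 2 weeks, at 15.6 CPM. That library and KO m3 at 2 weeks also held 4104 and 3150 CPM of 9 summed neutrophil genes, against 19.9 to 237.5 CPM in the other 15 libraries. In these sorted pools, fewer cells of a type and less RNA per cell cannot be told apart.

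Il6st and Stab1 were well detected, at percentiles 93.6 and 85.7 of protein-coding genes by level per exon length in WT at 4 weeks. Lyve1 was at percentile 42.6 and the other 6 between 65.3 and 69.6. At 2 weeks all but Il6st and Nr2f2 were at or under the floor in some libraries. Stab2, Fcgr2b, Mrc1 and Lyve1 exceeded the floor in 3, 3, 1 and 0 of the 8 libraries at 2 weeks, against 9, 9, 8 and 4 of the 9 libraries at 4 weeks. Il6st and Nr2f2 exceeded it in all 17 libraries, and Stab1, Dnase1l3 and Adamts5 in 7, 6 and 6 of 8 at 2 weeks and in all 9 at 4 weeks. Of all 5689 genes with a mean of 10 to 60 CPM at 4 weeks, 67.1% were at or under the floor in at least 1 of the 2-week libraries, as were 5 of the 6 described here in that range. At 4 weeks the share was 1.55%, and 1 of these 6 (Mrc1, in WT m1) was at the floor in a library.

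**Figure D1:**
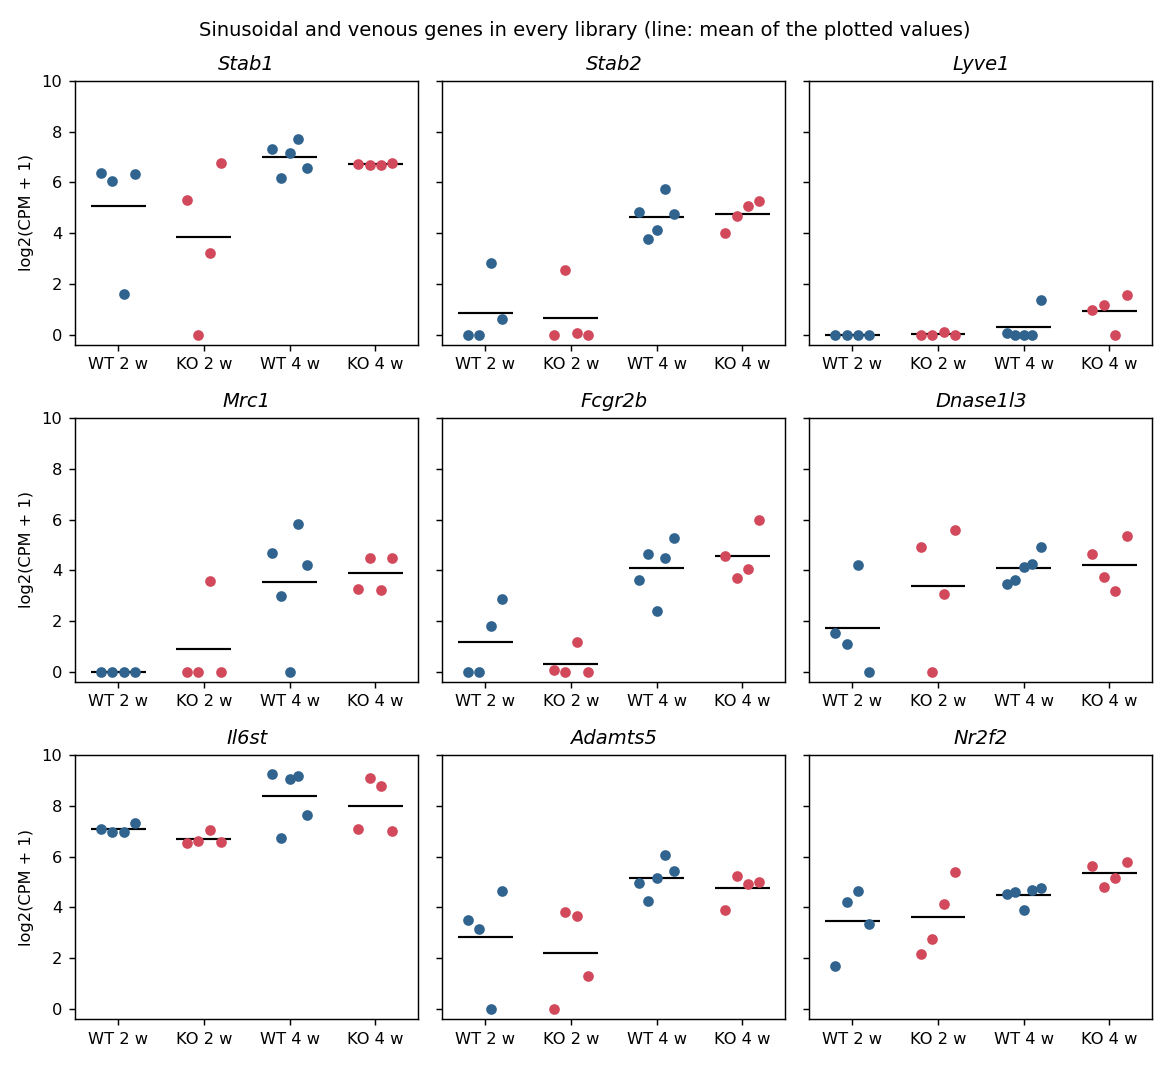
Each panel plots 1 gene as log2(CPM + 1) in every library (points), by genotype and weeks after tamoxifen, with a line at the mean of the plotted values. Stab2 and Fcgr2b sit near 0 in most 2-week libraries and above 2 in all 4-week libraries, Lyve1 stays under 2 throughout, and Il6st falls into a high and a low set at 4 weeks within both genotypes.

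Stab1 and Stab2 are large sister scavenger receptors of sinusoidal endothelium, and Stab2 clears hyaluronan from blood. At 2 weeks Stab1 was at 82.8 (f1), 65.6 (f4), 1.99 (m2) and 78.7 CPM (m3) in WT, and at 38.8 (f1), 0 (f4), 8.28 (m2) and 109 CPM (m3) in KO. WT m2 and KO f4 and m2 were low, KO m3 was the highest, and the groups overlapped. At 4 weeks Stab1 was at 160 (f), 70.4 (f3), 143 (m1), 209 (m2) and 94.2 CPM (m3) in WT, and between 102 and 107 CPM in all 4 KO libraries. The KO values thus fell inside the WT range, with group means of 104 ± 2.38 (SD, n = 4) in KO and 135 ± 54.9 (SD, n = 5) in WT. For KO against WT the log2 fold change was -0.72 (SE 2.07) at 2 weeks and -0.37 (SE 0.27) at 4 weeks, with adjusted p-values of 1.0 and 0.9997 in edgeR quasi-likelihood tests. With 1 library left out they ran from -2.14 (without KO m3) to -0.03 (without KO f4) at 2 weeks and from -0.51 (without WT m3) to -0.16 (without WT m2) at 4 weeks.

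Stab2 was at 0 in WT f1 and f4 and at 6.05 (m2) and 0.530 CPM (m3) in WT at 2 weeks, and in KO it was at 4.89 CPM in f4 with the others at or under 0.0337 CPM. The 4-week values were 27.6 (f), 12.5 (f3), 16.4 (m1), 53.1 (m2) and 26.0 CPM (m3) in WT, and 15.0 (f2), 24.2 (m1), 32.2 (m2) and 37.7 CPM (m3) in KO. Every 4-week library was above every 2-week library of its genotype. The means differed by 16.5-fold in WT and 22.1-fold in KO, yet the fitted log2 differences of 4.01 (SE 2.26) and 3.54 (SE 2.47) had adjusted p-values of 0.342 and 0.501 (edgeR). Of the 2-week WT libraries m2 had most of the counts, and without it the WT difference was 6.96 with an adjusted p of 0.160. Without KO f4 at 2 weeks the KO difference was 10.69 with an adjusted p of 0.0275. The limma voom fit with quality weights on libraries called both genotypes (6.46 and 8.57, adjusted p = 0.0166 and 0.00938). Between the genotypes at 4 weeks the Stab2 means were 27.3 ± 9.88 CPM (SD, n = 4) in KO and 27.1 ± 15.8 CPM (SD, n = 5) in WT. The fitted difference was -0.11 on the log2 scale (SE 0.38, adjusted p = 0.9997).

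Mrc1, the mannose receptor, is shared by sinusoidal endothelium and macrophages. No count was seen in any of the 4 WT libraries or in KO f1, f4 and m3 at 2 weeks, and the remaining library, KO m2, had 10.9 CPM. The same library held the macrophage gene Adgre1 at 20.3 CPM, which was at 0 in the other 7 libraries of that time. At 4 weeks Mrc1 was at 24.9 (f), 6.82 (f3), 0 (m1), 55.0 (m2) and 17.7 CPM (m3) in WT, and at 8.59 (f2), 21.6 (m1), 8.44 (m2) and 21.6 CPM (m3) in KO. The genotypes overlapped there, and the fit gave -0.57 on the log2 scale (SE 1.197, adjusted p = 0.9997). The 4-week WT mean of 20.9 CPM was at least 227-fold higher than the 3-count floor of the 2-week WT libraries, and the adjusted p of 0.0637 was the smallest of the 9 genes in that comparison (edgeR). It passed the threshold without WT m1 at 4 weeks (adjusted p = 0.0485) and without KO m2 at 2 weeks (adjusted p = 0.0317). The 12 macrophage markers summed to 26.0 to 54.6 CPM in the 4-week libraries, with Adgre1 at or under 2.97 CPM and Timd4 and Marco at 0. Csf1r and C1qb were above the floor in all 9 of these libraries and Cd68 in 8, at up to 11.6, 9.74 and 9.97 CPM, and Cd163 reached 7.56 CPM. Of 8 macrophage markers tested between times, 6 differences were positive in WT (median 2.74, none called) and 5 in KO (median 1.90, with C1qb called higher). WT m2, the highest in Mrc1, summed to 30.7 CPM and WT m1, the lowest, to 40.4 CPM. The part of macrophage transcripts in the Mrc1 level was not tested.

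Lyve1, a hyaluronan receptor of lymphatic and liver sinusoidal endothelium, was close to absent. Its highest count at 2 weeks was 2 reads, in KO m2. At 4 weeks it was above the floor in WT m3 (1.55 CPM) and in KO f2, m1 and m3 (0.977, 1.23 and 1.93 CPM). The log2 fold change of 2.37 (SE 2.09) at 4 weeks therefore rests on few reads, at most 51 in a library, and had an adjusted p of 0.9997. The 6 lymphatic markers summed to 16.2 to 86.9 CPM over the 17 libraries, most of it Flt4, which sinusoids also make. Pdpn, Ccl21a and Reln were at 0 in all 8 libraries at 2 weeks and at or under 1.41 CPM at 4 weeks, while Prox1 reached 8.61 CPM and Mmrn1 14.6 CPM at 4 weeks, and Mmrn1 13.9 CPM in a WT library at 2 weeks.

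Fcgr2b encodes the inhibitory IgG receptor with which sinusoids clear small immune complexes, and it is also made by B cells and myeloid cells. At 2 weeks it was at 0 in WT f1 and f4 and at 2.46 (m2) and 6.23 CPM (m3) in WT, and in KO only m2 exceeded the floor, at 1.28 CPM. In the 4-week libraries Fcgr2b was at 11.1 (f), 23.99 (f3), 4.31 (m1), 21.1 (m2) and 37.6 CPM (m3) in WT and at 22.5 (f2), 11.9 (m1), 15.5 (m2) and 62.7 CPM (m3) in KO. All 4-week KO libraries stood above all 2-week KO libraries, and in WT 4 of 5 did so. The log2 difference between times was 6.76 (SE 2.28, adjusted p = 0.0880) in KO and 4.17 (SE 2.12, adjusted p = 0.275) in WT. Between genotypes at 4 weeks the log2 difference was 0.49 (SE 0.70, adjusted p = 0.9997), and without KO m3, the highest library, it was -0.26. The 6 B cell markers summed to 116 to 198 CPM at 4 weeks, nearly all of it Ebf1, which stroma also makes. Of the defining ones, Ms4a1 and Pax5 were at 0 and Cd79a at or under 1.51 CPM there, Cd79b reached 3.59 CPM, and Cd79a reached 21.4 CPM in KO m2 at 2 weeks. Without that library the time difference in KO was 10.02 with an adjusted p of 0.0477 (edgeR).

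Dnase1l3 encodes a secreted nuclease that digests chromatin in circulating particles. At 2 weeks it was at 1.87 (f1), 1.1496 (f4), 17.3 (m2) and 0 CPM (m3) in WT and at 29.1 (f1), 0 (f4), 7.34 (m2) and 47.2 CPM (m3) in KO. The groups overlapped, with means of 5.08 and 20.9 CPM, and the log2 fold change of 2.49 had an SE of 2.58 (adjusted p = 1.0). It was 0.22 without KO f1 and 4.75 without WT m2. The 4-week libraries had 10.02 (f), 11.2 (f3), 16.4 (m1), 18.1 (m2) and 29.3 CPM (m3) in WT and 23.8 (f2), 12.4 (m1), 7.99 (m2) and 39.7 CPM (m3) in KO. These ranges overlapped as well, and the fit gave 0.35 on the log2 scale (SE 0.51, adjusted p = 0.9997). In KO its mean was 20.9 CPM at 2 weeks and 20.97 CPM at 4 weeks, which made Dnase1l3 the 1 gene of the 9 with a negative fitted time difference there (log2 -0.34, SE 1.61, adjusted p = 0.965).

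Il6st encodes gp130, the signalling chain shared by the receptors of interleukin-6, LIF and oncostatin M. At 2 weeks it was even, at 134 (f1), 124 (f4), 124 (m2) and 162 CPM (m3) in WT and at 91.6 (f1), 98.3 (f4), 133 (m2) and 95.0 CPM (m3) in KO. Of the KO libraries, m2 alone reached into the WT range, and the log2 fold change was -0.39 (SE 0.21). The edgeR test gave it an unadjusted p of 0.106 and an adjusted p of 1.0. At 4 weeks it was at 616 (f), 106 (f3), 538 (m1), 580 (m2) and 197 CPM (m3) in WT and at 134 (f2), 554 (m1), 447 (m2) and 128 CPM (m3) in KO. There were 5 libraries at 447 CPM or more and 4 at 197 CPM or less, with both genotypes in each set, and the low set lay close to the 2-week values. The genotype difference at 4 weeks was -0.53 (SE 0.62, adjusted p = 0.9997) on the log2 scale, and between -0.86 (without KO m1) and -0.08 (without WT f) with 1 library left out. Of the 12 listed partners of Il6st, 11 were tested there, with 4 positive, 7 negative, none called and a median of -0.17. The smallest p-values were those of the interleukin-11 receptor gene Il11ra1 (0.40, SE 0.21), the kinase gene Jak1 (-0.56, SE 0.32) and the signal transducer gene Stat3 (-0.59, SE 0.36), all with adjusted p-values of 0.9997 in edgeR.

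Adamts5 encodes a secreted protease that cleaves the proteoglycans aggrecan and versican. At 2 weeks it was at 10.3 (f1), 7.78 (f4), 0 (m2) and 23.99 CPM (m3) in WT and at 0 (f1), 13.1 (f4), 11.6 (m2) and 1.43 CPM (m3) in KO. In the 4-week libraries Adamts5 was at 30.2 (f), 18.2 (f3), 34.5 (m1), 66.4 (m2) and 41.9 CPM (m3) in WT and at 13.9 (f2), 36.9 (m1), 29.3 (m2) and 31.2 CPM (m3) in KO. All 4 KO libraries were below the WT mean of 38.2 CPM, but 3 of them lay inside the WT range. The log2 fold change at 4 weeks was -0.60 (SE 0.25), with an unadjusted p of 0.0388 and an adjusted p of 0.9997 in edgeR. Of its 10 listed relatives and substrates, 7 were tested at 4 weeks and none was called (1 positive, 6 negative, median -0.57). Among them Adamts4 had a log2 fold change of -0.57 (SE 0.42). Acan (aggrecan) and Vcan (versican) were nearly without reads, with WT means of 0 and 1.18 CPM at 4 weeks. Of the 10 stromal and mesenchymal markers, 2 were positive and 8 negative between genotypes at 4 weeks (median -0.42, none called). Their part in the Adamts5 difference was not tested.

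Nr2f2, the venous regulator also called COUP-TFII, had the smallest genotype p-value of the 9 at 4 weeks. At 4 weeks it was at 21.9 (f), 23.5 (f3), 13.9 (m1), 25.0 (m2) and 26.4 CPM (m3) in WT and at 48.2 (f2), 26.6 (m1), 35.2 (m2) and 54.0 CPM (m3) in KO. All 4 KO libraries stood above all 5 WT libraries, although KO m1 exceeded WT m3 by a small margin. Of the erythroid markers, 8 of 8 had positive log2 fold changes at 4 weeks (median 1.61, none called), with sums of 611 to 2893 CPM in KO and 165 to 1272 CPM in WT. At 2 weeks 5 of 5 tested were positive (median 2.24, none called), with sums of 278 to 1240 and 61.4 to 180 CPM. Their part in the Nr2f2 difference was not tested. The mean was 41.0 ± 12.4 CPM (SD, n = 4) in KO and 22.2 ± 4.89 CPM (SD, n = 5) in WT, a ratio of 1.85. The log2 fold change was 0.93 (SE 0.29), with an unadjusted p of 0.0107 that ranked 60 of 15209 and an adjusted p of 0.9997 in edgeR. Over 20 alternative settings the log2 fold change kept its sign, between 0.65 and 1.08, and the adjusted p stayed at or above 0.479. Without KO m2, the KO library highest in Eng, it was 0.99. At 2 weeks Nr2f2 was at 2.26 (f1), 17.5 (f4), 23.9 (m2) and 9.17 CPM (m3) in WT and at 3.52 (f1), 5.80 (f4), 16.5 (m2) and 41.0 CPM (m3) in KO, with no separation (log2 fold change -0.10, SE 1.21). The effects at the 2 times differed by 0.58 (SE 1.05, adjusted p = 1.0) on the log2 scale, so a difference between the times was not shown. It was 0.13 without WT f4 and 1.45 without KO m3 of the 2-week libraries. The Notch receptor gene Notch1, which Nr2f2 is known to hold down in veins, differed by -0.31 (SE 0.17, adjusted p = 0.9997) at 4 weeks on the log2 scale. Of the 9 listed partners of Nr2f2 none was called there (2 positive, 7 negative, median -0.24), and its paralog Nr2f1 was low, at 2.03 CPM in WT and 1.30 CPM in KO.

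Across all genes the genotype test gave few or no calls, and the 9 genes are read against that. At 2 weeks 5 of the 9 passed the filter on low counts and 0 were called, against 0 of 10477 genes (0%). None of the 5 had an unadjusted p under 0.05, against 276 genes (2.63%), and none had non-overlapping groups, against 3.36%. At 4 weeks all 9 were tested and 0 were called, against 0 of 15209 genes (0%). Eng, the deleted gene, was thus not called at either time, with KO to WT ratios of mean CPM of 0.26 at 2 weeks and 0.30 at 4 weeks. The absence of a call therefore does not show the absence of a change. DESeq2 called 149 genes at 2 weeks and 17 at 4 weeks, none of them among the 9. Nr2f2 and Adamts5 had an unadjusted p under 0.05, against 422 genes (2.77%), and Nr2f2 alone did not overlap, against 1.19%. The median log2 fold change of the 9 at 4 weeks was -0.11, with 4 above and 5 below 0, and that of all tested genes was 0.01. For the difference between the genotype effects at 4 and 2 weeks edgeR called 0 of the 9, against 12 of 15703 genes (0.0764%). DESeq2 called 1303 genes for this difference, among them Mrc1 (adjusted p = 5.26e-11). In edgeR Mrc1 had the smallest p of the 9 (0.0252, adjusted p = 0.438), and its log2 difference of -9.56 became -0.61 without KO m2 at 2 weeks. Of 8 macrophage markers tested for this difference, 4 were positive and 4 negative. Among them C1qb was called (11.95, adjusted p = 0.0423 in edgeR), while Adgre1 (-11.72) and Cd68 (7.58) were not. Their part in the Mrc1 difference was not tested.

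**Figure D2:**
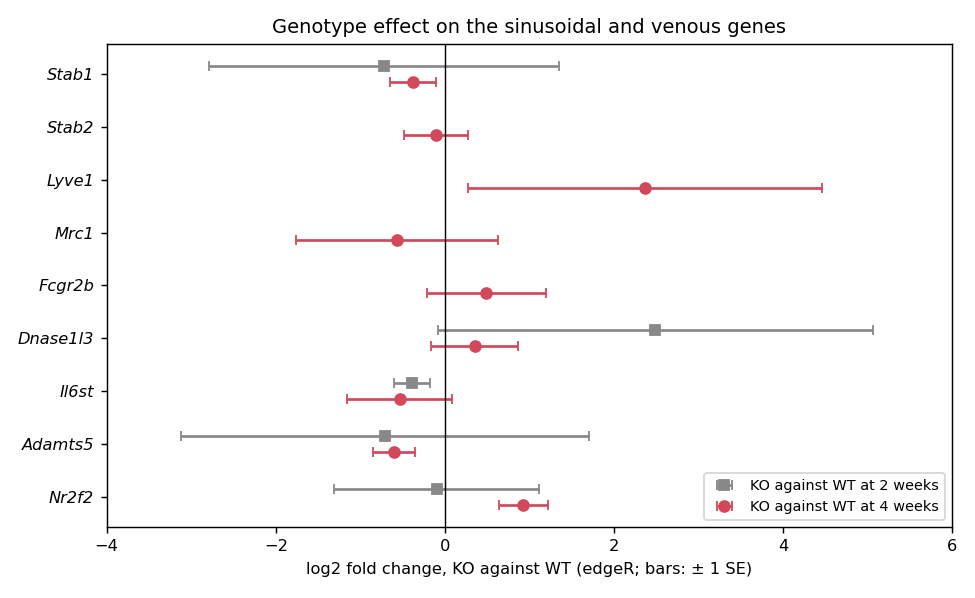
Log2 fold changes of KO against WT from edgeR are plotted for each gene, with bars of 1 SE, at 2 weeks (grey squares, the 5 genes tested) and at 4 weeks (red circles, 9 genes). The bars of Nr2f2, Adamts5, Stab1 and Lyve1 at 4 weeks and of Il6st at 2 weeks do not reach 0, no gene passes the test, and the 2-week bars of Stab1, Dnase1l3, Adamts5 and Nr2f2 are wide.

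Other sinusoidal and venous genes showed no called genotype difference either. Of 22 listed, 20 were tested at 4 weeks, with a median log2 fold change of -0.14, 8 positive and 12 negative. The smallest p-values were those of Scarb1, the HDL receptor (-0.48, SE 0.17), Ephb4, a receptor that marks veins (-0.43, SE 0.17), and Aplnr, the apelin receptor (-0.77, SE 0.31), all with adjusted p-values of 0.9997 in edgeR. Aplnr was also lower in KO at 2 weeks without a call (-0.70, SE 0.17, adjusted p = 1.0). The 20 arterial and arteriolar genes had a median of 0.05 at 4 weeks, 12 positive and 8 negative, with no call. At 2 weeks the median was -0.52 over 19 tested arterial genes (6 positive, 13 negative). It was -0.26 over 17 tested genes of the 22 (6 positive, 11 negative) and -0.06 over all tested genes, with no call.

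Between the time points, 9 of 9 fitted differences were positive in WT and 8 of 9 in KO, with medians of 1.61 and 1.51 on the log2 scale against 0.42 and 0.49 over all genes. With genes at the floor at 2 weeks set to their lower bound, the medians were again 1.61 and 1.51. Stab2, Lyve1, Mrc1 and Fcgr2b failed the filter on low counts among the 2-week libraries and entered this fit through their 4-week levels. Positive differences were thus favoured in advance for them, also in the counts, medians and calls given here and above. These describe the libraries and are no test of a rise with time. None of the 9 passed the edgeR test in either genotype with all libraries. DESeq2 called Mrc1 and Fcgr2b in WT (adjusted p = 4.07e-26 and 0.0308) and Fcgr2b in KO (adjusted p = 0.000438). With quality weights, limma voom called Stab2 in both (adjusted p = 0.0166 and 0.00938). Of all 15703 genes, 790 (5.03%) were called higher and 296 (1.88%) lower at 4 weeks in WT, and 760 (4.84%) higher and 234 (1.49%) lower in KO. In WT 1 of the 9 (Stab2) had all 4-week libraries above all 2-week libraries, against 16.1% of genes, and in KO 3 did (Stab2, Fcgr2b and Adamts5), against 21.4%. Libraries were also scaled on the endothelial core genes Pecam1, Cdh5, Tie1, Egfl7 and Esam in place of TMM. The median of all genes then moved to -0.24 in WT and -0.36 in KO. Of the calls, 40.3% and 37.0% were higher at 4 weeks in place of 72.7% and 76.5%. The median of the 9 then lay 1.05 and 0.91 above that of all genes, with 8 positive in each genotype (Nr2f2 in WT and Dnase1l3 in KO were negative).

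Of the 22 other sinusoidal and venous genes, 6 of 20 tested rose and 0 fell at 4 weeks in WT, and 4 rose and 0 fell in KO. They were led by Icam1, the leukocyte adhesion molecule (log2 2.72, SE 0.47, adjusted p = 0.00365 in WT), Emcn, a sialomucin of sinusoids and veins (1.35, SE 0.24, adjusted p = 0.00441), and Plvap, the diaphragm protein of fenestrae (1.79, SE 0.34, adjusted p = 0.00661; edgeR). The 20 arterial genes had 1 call in WT, the Notch ligand Dll4 (1.70, SE 0.42, adjusted p = 0.0281), and 1 in KO, Sox17 (1.04, SE 0.19, adjusted p = 0.00571; edgeR). Among the 12 endothelial core genes 6 rose in WT and 7 in KO, including Cdh5 by 1.11 and 1.27 on the log2 scale. Of the partners of Il6st, Il27ra was called in WT, with no reads at 2 weeks and a mean of 20.04 CPM at 4 weeks, and Socs3, the feedback inhibitor of gp130 signalling, stood at means of 65.4 and 875 CPM without a call (adjusted p = 0.0776). Of the partners of Nr2f2, Notch1 rose in WT (2.17, SE 0.60, adjusted p = 0.0446), and the transcription factor gene Foxc1 was called in KO (adjusted p = 0.00909; edgeR), with no reads at 2 weeks and a mean of 5.30 CPM at 4 weeks. The erythroid gene Slc4a1 was called in WT (adjusted p = 0.0266), also with no reads at 2 weeks. In KO the neutrophil gene S100a8 was called lower at 4 weeks (-4.78, SE 0.92, adjusted p = 0.00783 in edgeR). All 9 neutrophil markers were negative there.

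The high and low sets of Il6st at 4 weeks followed a split of the libraries that was also seen without any listed gene. Principal component 1 of the 4-week libraries, taken from 2000 variable genes outside all lists, held 42.7% of their variance. WT f, m1 and m2 and KO m1 and m2 scored above 0, from 13.5 to 23.9, and WT f3 and m3 and KO f2 and m3 below 0, from -28.7 to -11.5. Il6st was at 447 to 616 CPM in the former 5 and at 106 to 197 CPM in the latter 4. Fcgr2b showed the opposite order, at 4.31 to 21.1 CPM and at 22.5 to 62.7 CPM. Of 15209 genes, 7.40% were higher in all 5 than in all 4 and 3.73% were lower, so neither gene is particular in this. Total counts of these sets overlapped (25540810 to 33726630 and 20477400 to 26967527). The 3 libraries numbered 3 (WT f3 and m3, KO m3) were all below 0 and those numbered m1 and m2 all above 0, with f2 below 0. What the numbers stand for is not given in the sources used here.

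Nr2f2 was at 13.9 to 25.0 (WT) and 26.6 and 35.2 CPM (KO) where component 1 was above 0, and at 23.5 and 26.4 (WT) and 48.2 and 54.0 CPM (KO) where it was below 0. The order of the genotypes on each side follows from their separation over all 9 libraries. With component 1 as a term the Nr2f2 difference was 0.65 on the log2 scale, while those of Il6st (0.24), Fcgr2b (-0.30) and Dnase1l3 (-0.40) took the opposite sign, all without a call. Osmr, the oncostatin M receptor that pairs with gp130, stood at 144 to 214.5 CPM in the 5 libraries and at 35.6 to 79.1 CPM in the 4, and Socs3 at 956 to 1240 and 460 to 811 CPM. The receptors Kdr (1646 to 2179 and 416 to 626 CPM) and Tek (539 to 734 and 110 to 272 CPM) split the same way. The 10 stromal and mesenchymal markers summed to 2736 to 3765 CPM in the 5 libraries and 1162 to 1592 CPM in the 4, most of it Cxcl12 (2006 to 2803 and 818 to 1131 CPM) and Kitl, which endothelium also makes. The other 8 stromal markers overlapped between the sets. Of these, Pdgfrb was at 9.70 to 69.7 and 0.830 to 12.5 CPM, Lepr at 30.4 to 62.6 and 14.8 to 36.0 CPM and Col3a1 at 9.40 to 124 and 11.6 to 22.2 CPM, while Pdgfra, Lum and Dcn were at or under 4.005, 6.37 and 22.6 CPM. The part of stromal transcripts in the Il6st levels was not tested. Stat3 was at 249 to 419 and 106 to 225 CPM. Of the other partners of Il6st, Lifr (57.5 to 141 and 72.3 to 124 CPM) and Jak1 (181 to 344 and 115 to 212 CPM) overlapped between the sets. Cdh5 (583 to 719 and 649 to 759 CPM) and the arterial gene Sox17 (434 to 513 and 490 to 571 CPM) overlapped between the sets.

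**Figure D3:**
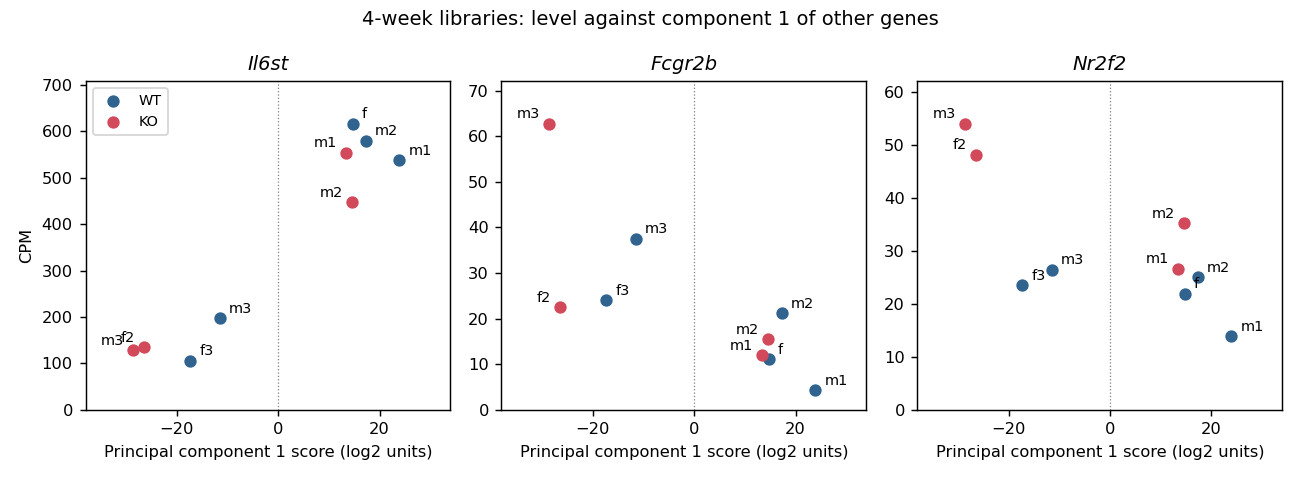
The CPM of Il6st, Fcgr2b and Nr2f2 in each 4-week library is plotted against its score on principal component 1 of other genes, with WT in blue and KO in red. Il6st is at 447 CPM or more wherever the score is positive and at 197 CPM or less elsewhere, and the 2 highest Nr2f2 points are KO libraries with a score below 0.

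Levels between genes were compared per kilobase of exon (CPM per kb). In WT at 4 weeks the order was Il6st (36.7 ± 21.4, SD, n = 5), Stab1 (13.2 ± 5.33), Adamts5 (3.54), Fcgr2b (3.39), Dnase1l3 (3.30), Mrc1 (3.28), Stab2 (3.10), Nr2f2 (2.57) and Lyve1 (0.108). The ranges of Il6st and Stab1 overlapped, that of Stab1 lay above that of Adamts5, and the 6 genes from Adamts5 to Nr2f2 overlapped with their neighbours. The range of Nr2f2 lay above that of Lyve1. In KO at 4 weeks Il6st (28.5) and Stab1 (10.1) again led and Lyve1 (0.355) was again last, while Nr2f2 was in place 4 of 9 at 4.75. There the ranges of Il6st and Stab1 did not overlap. At 2 weeks Il6st led in WT (12.3), with no overlap with Stab1 (5.57), and in KO (9.42), where it overlapped with Dnase1l3 (4.06). The genes below these overlapped with their neighbours or, as Mrc1 and Lyve1 in WT, were both at 0.

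The median level of the 9 genes was below that of the arterial genes in the same cells, while single genes of the lists overlapped. In WT at 4 weeks the median level of the 9 was 3.30 CPM per kb, that of 20 arterial and arteriolar genes 32.9, and that of 12 endothelial core genes 199.6. At 2 weeks these medians were 0.975, 16.3 and 78.3. The arterial genes ran from 0.0856 (Hey2) to 2435 CPM per kb (Ly6c1) in WT at 4 weeks. Il6st was above their median, and Stab1 above the Notch ligand Jag1 (5.96) and the gap junction gene Gja5 (11.7). The 22 other sinusoidal and venous genes had a median of 22.6 CPM per kb at 4 weeks, from 0 for the sinusoidal regulator Gata4 to 1742 for the fatty acid transporter Cd36, which capillaries also make. Gpr182, a receptor of sinusoidal endothelium, was at 11.6 CPM per kb.

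**Figure D4:**
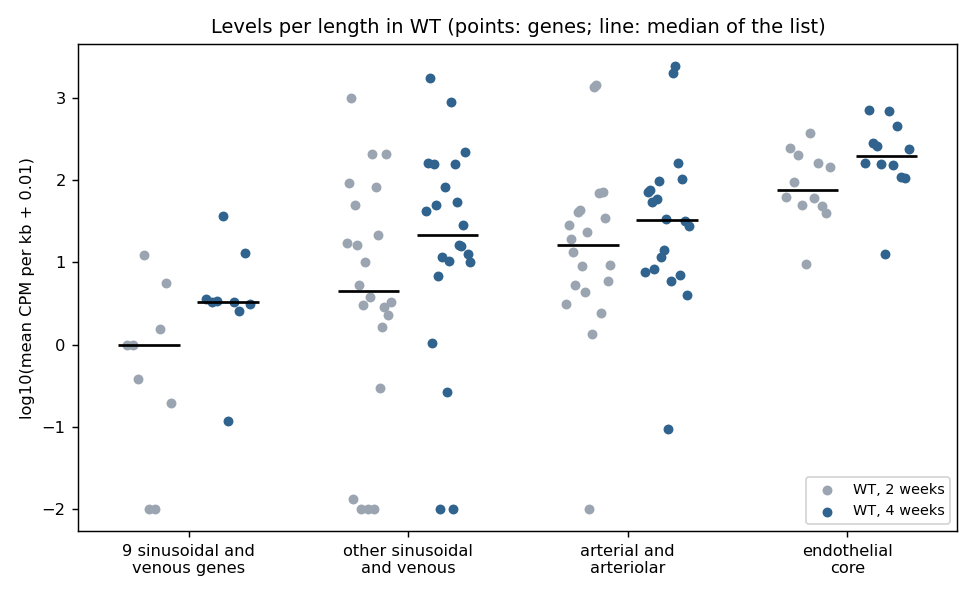
Each point is the mean level of 1 gene in WT as log10(CPM per kb + 0.01), at 2 weeks (grey) and 4 weeks (blue), by gene list, with a line at the list's median. The 9 sinusoidal and venous genes have the lowest median of the 4 lists at both times, and the gap between Il6st and Stab1 and the remaining 7 is visible at 4 weeks.

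The 9 genes did not move as 1 group among the 4-week libraries. Over the 9 libraries, as deviations of log2 CPM from the group means and as a description, Fcgr2b and Nr2f2 varied together (Pearson r = 0.90), as did Stab2 and Adamts5 (0.85) and Stab1 and Il6st (0.70), while Il6st ran against Fcgr2b (-0.69) and Nr2f2 (-0.66). The libraries share the split given above. Of 6905 other genes, those closest to the mean deviation of the 8 detected genes were Psma7 (0.98), Mcam (0.96), Gm20650 (0.95), Dpysl3 (0.94) and Tfam (0.94). That mean follows Mrc1 most (0.89), whose deviations had the widest spread (SD of 2.69 on the log2 scale).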

How the data were processed

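Bone marrow endothelial cells of 17 mice were profiled with SmartSeq2, a full-length method without molecular identifiers, so floors cover counting error only. The authors deposited raw counts per Ensembl gene, 1 table per library. The submitters' processing notes name cutadapt, STAR, HTSeq 0.6.1p1 and GRCm38 (mm10), with no roles, annotation release or strand setting. Of 49585 identifiers, 49326 matched a symbol in GENCODE M21, and promoters came from RefSeq.

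Genotypes were compared within each time with edgeR 4.0.16 (R 4.3.3) on the deposited counts: filterByExpr, TMM, a robust quasi-likelihood fit with sex as a term, and Benjamini-Hochberg adjustment over all genes of the fit, with a threshold of 0.05. Differences involving both times used 1 fit of all 17 libraries. SEs come from the F statistic. CPM uses the library total. Fits were tested on simulated counts. No pair of libraries of a group agreed within counting noise (the lowest chi-square per degree of freedom was 47.1). Libraries were taken as separate animals, so p-values measure the spread between them.

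All 9 genes were named in every comparison, and from each other list up to 3 genes with the smallest p. Genes described by level or beside the library split were chosen after their values were seen. The 9 genes, the 14 other lists and the alternatives were chosen with earlier results of these data known. Each test was repeated with 3 further scalings (on Pecam1, Cdh5, Tie1, Egfl7 and Esam, by upper quartiles and by the size factors of DESeq2). It was also repeated with 2 other filters, DESeq2 1.42.0, limma 3.58.1 voom with quality weights, no sex term and leaving out each library. A replicate block was used for the genotype tests and the difference of their effects, and a joint fit for the genotype tests alone. Libraries left out by composition or by component 1, that component as a term, and WT libraries alone were added after seeing the data.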

Additional observations from a re-analysis of the deposited data

Results flagged for a closer look

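Of 33 combinations of gene and group tested, 7 had 1 library that stood apart from the others of its group by Dixon's 95% limit. Chance flags about 1 in 20 groups of normally distributed values, a rate that is no guide where most libraries of a group are at or near 0, since 1 library with reads is then flagged by construction. KO m2 at 2 weeks was the outlying library for Mrc1 (10.9 CPM, the others 0), Fcgr2b (1.28 CPM, the next 0.0374) and Il6st (133 CPM, the next 98.3). It is the library with Adgre1 at 20.3 CPM, Ptprc at 15.6 CPM and 4104 CPM of neutrophil genes, and their part in these values was not tested. WT m2 at 2 weeks was outlying for Stab2 (6.05 CPM, the next 0.530) and Dnase1l3 (17.3 CPM, the next 1.87), and was at the same time the lowest WT library of that time in Stab1 (1.99 CPM) and Adamts5 (0 CPM). KO f4 at 2 weeks stood apart in Stab2 (4.89 CPM, the next 0.0337) with Stab1 at 0. WT m3 at 4 weeks stood apart in Lyve1 (1.55 CPM, the next 0.0297).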

How the results depend on the processing

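Of the alternatives to the values of the 9 genes, 879 kept direction and side of the threshold (539 of them leaving out 1 library), 57 turned the sign of a value that was not called (33 of them leaving out 1 library) and 10 passed the threshold. For these changes the cause was not tested. For KO against WT at 2 weeks, Nr2f2 was 0.22 with core scaling, 0.64 with voom, 0.42 without sex, 0.14 with the replicate block and 0.25 in the joint fit. At 4 weeks, Stab2 was 0.068 with voom and 0.03 without sex, Mrc1 0.79 with voom and 0.036 with the block, and with component 1 as a term Fcgr2b was -0.30, Dnase1l3 -0.40 and Il6st 0.24. For the difference between the effects, core scaling gave Lyve1 -0.054 and Adamts5 -0.23, voom gave Stab2 2.12, Il6st 0.12 and Adamts5 -0.012, no sex term gave Stab2 0.41, Lyve1 -0.73 and Il6st 0.014, and the block gave Stab2 4.21. Between times, Nr2f2 in WT was -0.20 with core scaling, Il6st in WT -0.14 without the 5 libraries of positive component 1, and Dnase1l3 in KO 1.14 with voom. Leaving out 1 library gave, at 2 weeks, -2.50 to 1.11 for Adamts5 and -0.63 to 0.93 for Nr2f2. At 4 weeks it gave -0.33 to 0.25 for Stab2, -0.96 to 0.38 for Mrc1, -0.26 to 0.96 for Fcgr2b and -0.17 to 0.65 for Dnase1l3. For the difference it gave -0.25 to 1.68 for Stab1, -3.30 to 5.98 for Stab2, -0.74 to 2.03 for Lyve1, -0.46 to 0.26 for Il6st and -0.58 to 1.31 for Adamts5, and between times in KO -1.03 to 0.45 for Dnase1l3. DESeq2 called Mrc1 (26.75, adjusted p = 4.07e-26) and Fcgr2b (4.30, adjusted p = 0.0308) between times in WT, Fcgr2b in KO (6.89, adjusted p = 0.000438) and the Mrc1 difference (-23.99, adjusted p = 5.26e-11).

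Over all genes, the 0 calls of KO against WT at 2 weeks became 149 with DESeq2, 12 with voom and 31 in the joint fit, and the 0 at 4 weeks became 17 with DESeq2. The 12 calls of the difference became 6 with no filter, 0 with at least 10 counts in every library, 1303 with DESeq2, 5 with voom, 0 with the replicate block and 7 to 51 with 1 library left out, the most without KO m2 at 2 weeks. The 1086 calls between times in WT became 1911 with core scaling, 580 with no filter, 639 with at least 10 counts, 2938 with DESeq2, 95 without the 5 libraries of positive component 1 and 588 to 1261 with 1 library left out. The 994 in KO became 2023, 567, 626 and 2873 under the first 4 of these and 504 to 1222 with 1 library left out. The sources used here do not say what shared replicate numbers stand for, and they were not taken as pairs: deviations of same-numbered libraries correlated at -0.02 to 0.05 at 2 weeks and 0.05 to 0.16 at 4 weeks, and the block gave 0 calls at each time. Lyve1 had at most 51 reads in a library, and its values rest on few reads.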
